A study of Mus musculus with 10 samples.

Results

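The proteasome is the multi-subunit protease that degrades ubiquitin-tagged proteins, and its subunit genes in mouse CD4+CD25+ T cells are described here. Members were the genes whose symbol starts with Psma, Psmb, Psmc, Psmd, Psme or Psmg and that were named alone by a probe set of the array, each represented by its probe set with the highest mean. This gave 48 of 18193 genes. They comprised 8 alpha ring genes, 7 constitutive beta ring genes, 4 immunoproteasome genes, 6 regulatory ATPases, 11 regulatory non-ATPases, 2 other activators, 7 assembly chaperones and 3 genes that the symbol rule brought in without being subunits of this particle in T cells. Psme2, the remaining immunoproteasome gene, shared its probe set with Psme2b and is not reported.

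The cells came from lymph nodes of BALB/c mice at 17 to 19 days of age, were isolated with a kit for regulatory T cells (Treg cells) and went to RNA extraction without culture. The groups were mice homozygous for an SHP-1 knockout (me, 3 arrays), which have the motheaten phenotype, mice heterozygous for it (he, 3 arrays) and wild type mice (WT, 4 arrays). SHP-1 is the tyrosine phosphatase encoded by Ptpn6, which restrains signals from antigen and cytokine receptors. Per the labels each array is a biological replicate, and whether each came from its own animal is not stated, so p-values measure only the spread between these samples, which may be technical. In RNA from a cell fraction, fewer cells of a type and less RNA per cell cannot be told apart.

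In the core particle, alpha rings control entry and beta rings hold the catalytic sites, of which Psmb5, Psmb6 and Psmb7 carry the constitutive ones. Interferon induces Psmb8, Psmb9 and Psmb10, which replace these catalytic subunits to form the immunoproteasome, and Psme1 and Psme2, which form an activator ring. Lymphocytes carry immunoproteasomes without infection, and the peptides they make are loaded on MHC class I molecules. The regulatory particle, built from ATPases (Psmc) and non-ATPases (most Psmd), recognises and unfolds ubiquitin-tagged proteins.

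Levels are log2(intensity + 32) after quantile normalisation. Ptpn6 gave 8.84, 9.08 and 9.05 in me, 9.30, 9.33 and 9.54 in he, and 9.55, 9.63, 9.83 and 9.81 in WT, with no overlap between genotypes. All 8 listed markers of Treg and CD4 T cells were measured. Foxp3, the Treg transcription factor, gave 10.68, 11.58 and 11.15 in me, 10.74, 11.34 and 11.45 in he and 10.60, 10.83, 11.30 and 11.40 in WT. By correlation the arrays formed 2 sets that the labels do not explain. Set A held me 1, me 3, he 1, WT 1 and WT 2, and set B held me 2, he 2, he 3, WT 3 and WT 4. Within set B every me difference thus rests on me 2 alone, and within set A every he difference on he 1 alone. Correlations were 0.97 to 0.996 within a set and 0.854 to 0.944 between sets. Summed intensity of 6 CD8 and NK cell genes was 1350 to 1475 in set A and 3967 to 6831 in set B. Of the 6 genes, 4 were higher and 2 lower in set B on average. Cd8a, a CD8 T cell marker represented by 1 of its 5 probe sets, was 4.45 higher there on the log2 scale. Its level was 7.54 to 7.76 in set A and 11.34 to 12.45 in set B, so it weighs most in the set B sums. Cd8b1, also a CD8 T cell marker, was 0.19 lower in set B. All 8 measured interferon response genes were also higher on average in set B, by 0.12 to 1.39. That average includes he 2, where their summed intensity was 12522. It was 4855 to 5666 in the other set B arrays and 4028 to 5593 in set A, ranges that overlap. The part of these in the set differences was not tested. Results are given without a block and, where the direction or call differs for a result described in detail, with array set as a block or within each set.

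Promoter sequences are shown for the genes around which the immunoproteasome comparison turns, from RefSeq (GRCm38.p6). Psmb8 lies at chr17:34198195-34201454 and Psmb9 at chr17:34182030-34187330, either side of the transporter gene Tap1 (chr17:34187556-34197225). Capitals mark a match to TTCNNNGAA, the GAS element through which STAT factors act, upstream of Psmb8 (chr17:34198078-34198126, plus strand), and to TGACNNNGC, the antioxidant response element core, upstream of Psmb5 (chr14:54618014-54618062, minus strand). The stretch between the divergent starts of Psmb9 and Tap1 (chr17:34187331-34187555, plus strand) is printed whole, since both genes are measured and share it.
Psmb8: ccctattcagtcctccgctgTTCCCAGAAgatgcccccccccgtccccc
Psmb5: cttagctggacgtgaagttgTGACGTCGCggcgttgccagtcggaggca
Psmb9 and Tap1: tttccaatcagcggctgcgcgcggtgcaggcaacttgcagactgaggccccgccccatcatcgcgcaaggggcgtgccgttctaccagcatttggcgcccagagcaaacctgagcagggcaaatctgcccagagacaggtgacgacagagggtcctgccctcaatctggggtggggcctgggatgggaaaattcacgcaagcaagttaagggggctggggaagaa
The Psmb8 match runs from 97 to 89 bases before the start, and the Psmb5 match from 47 to 39. On both strands of the 300-base windows (250 bases before to 50 after each start), 3 of the 40 members with a window held the GAS element (7.5%, against 8.3% of 32851 windows). These were Psmb8, Psmd2 and Psmg1. For each motif a member counted once if any of its windows matched, whereas the share beside it is of single windows. The shares are therefore not directly comparable. The antioxidant response element core stood in 6 of 40 (15%, against 12.4%), namely Psmb5, Psmb6, Psmc6, Psmd12, Psmd9 and Psme4. The core of the interferon-stimulated response element (ISRE) stood in 5 of 40 (12.5%, against 3.44%), namely Psmb3, Psmd4, Psmd9, Psme1 and Psmg4. The Psmb9 and Tap1 stretch held none of these 3 motifs. Matches may overlap one another, and they describe letters, not bound sites.

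In cells of me mice the levels of the immunoproteasome genes overlapped those of WT cells at every gene. Psmb8, whose product replaces Psmb5, had 10.75, 11.05 and 11.04 in me, 10.57, 11.20 and 11.20 in he and 10.61, 10.66, 11.03 and 11.27 in WT. The me values fell inside the WT range, and the low values of he and WT were all in set A. Between me and WT the difference was 0.06 ± 0.21 (me minus WT, log2, SE of the fit, 3 me and 4 WT arrays), and 0.13 ± 0.11 with the block (95% interval -0.12 to 0.38). Within set A it was 0.26 and within set B -0.10. A second Psmb8 probe set gave -0.20 for the same difference.

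Psmb9, whose product replaces Psmb6, had 10.73, 10.89 and 10.95 in me, 10.63, 11.02 and 10.99 in he and 10.66, 10.67, 10.63 and 11.10 in WT. The me arrays lay above 3 of the 4 WT arrays and below WT 4. The me minus WT difference was 0.09 ± 0.14, and 0.13 ± 0.11 with the block (interval -0.13 to 0.38). Psmb10, whose product replaces Psmb7, had 10.11, 9.81 and 10.29 in me, 10.05, 10.47 and 9.77 in he and 10.16, 9.98, 10.02 and 9.85 in WT. Here me held both a value above and a value below all 4 WT arrays. Its me minus WT difference was 0.07 ± 0.17, and 0.04 ± 0.16 with the block (interval -0.32 to 0.41).

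Psme1, a subunit of the interferon-induced activator ring, had 9.70, 10.11 and 10.04 in me, 9.70, 10.39 and 10.42 in he and 9.79, 9.84, 10.54 and 10.36 in WT. Its values followed array set in he and WT, where set A arrays were at 9.70 to 9.84 and set B arrays at 10.36 to 10.54. The me minus WT difference was -0.18 ± 0.24, and -0.09 ± 0.11 with the block. It was 0.06 within set A and -0.34 within set B, so that its sign depended on the set.

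**Figure D1:**
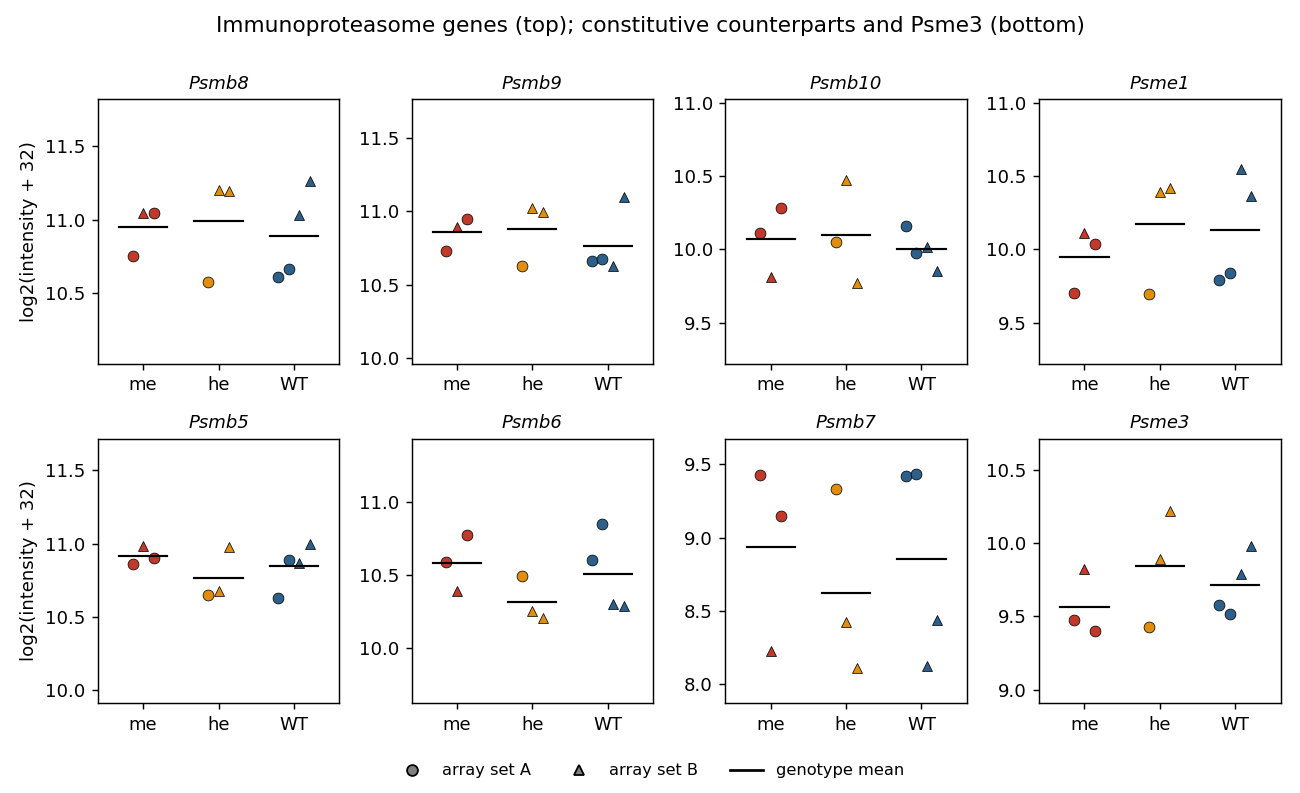
Levels, log2(intensity + 32), of immunoproteasome genes (top row) and of Psmb5, Psmb6, Psmb7 and Psme3 (bottom row) in me, he and WT arrays; circles are array set A, triangles set B, and lines genotype means. Genotypes overlap in every panel, and in the Psmb7 panel all 5 set B arrays lie at 8.11 to 8.44 while all 5 set A arrays lie at 9.15 to 9.44.

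All 4 immunoproteasome genes had a positive he minus WT difference, between 0.04 and 0.12. Their median was 0.10, beside -0.01 over all genes. But all 4 were negative within set A (median -0.05), where he 1 was the only he array, and the set B median was 0.10. The median was -0.10 without normalisation between arrays and -0.12 with centring on array medians. The values also depended on single arrays, with medians of 0.26 without he 1, -0.04 without he 2 and 0.03 without he 3. Without he 2 the differences were -0.01 for Psmb8, 0.04 for Psmb9, -0.09 for Psmb10 and -0.08 for Psme1. In he 2 the summed intensity of 8 measured interferon response genes (of 10 listed) was 12522, against 4141 and 4855 in the other he arrays, 4157 to 5593 in me and 4028 to 5666 in WT. Psmb10 was higher in he 2 than in any other array, whereas Psmb8 and Psmb9 differed little between he 2 and he 3. The part of interferon response in the he values was not tested. With array set as a block the he minus WT median was 0.05, with 3 of the 4 genes positive.

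The catalytic counterparts were compared through the log2 difference of each pair within an array, whose level depends on the probes and is read only between arrays. For Psmb8 minus Psmb5 the values were -0.11, 0.06 and 0.14 in me, -0.08, 0.52 and 0.22 in he and -0.02, -0.23, 0.16 and 0.27 in WT. The me values fell inside the WT range. For Psmb9 minus Psmb6 they were 0.14, 0.51 and 0.17 in me, 0.13, 0.77 and 0.79 in he and 0.06, -0.17, 0.33 and 0.81 in WT. For Psmb10 minus Psmb7 they were 0.68, 1.58 and 1.13 in me, 0.72, 2.05 and 1.66 in he and 0.74, 0.54, 1.89 and 1.41 in WT. In each pair the genotypes overlapped, and the me minus WT differences of the group means were -0.02, 0.02 and -0.01. Within set A they were 0.14, 0.21 and 0.27 and within set B -0.16, -0.06 and -0.07. The direction thus differed between sets for all 3 pairs, but the set B values rest on me 2 alone. In set A, me 1 lay between WT 1 and WT 2 for the pairs of Psmb8 (-0.11) and Psmb10 (0.68). There only me 3 lay above them (0.14 and 1.13). For the pair of Psmb9 both me 1 and me 3 lay above WT 1 and WT 2. For he minus WT the pairs differed by 0.18, 0.31 and 0.33, and by 0.04, 0.19 and 0.08 within set A and 0.16, 0.21 and 0.20 within set B. Set B arrays lay above set A arrays in the pairs of Psmb9 (0.33 to 0.81 against -0.17 to 0.17) and Psmb10 (1.41 to 2.05 against 0.54 to 1.13).

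No member passed an adjusted p of 0.05 in any comparison. With limma and no block, 0 of 48 members and 0% of all genes were called in each of the 3 pairwise comparisons and in the F test over the 3 genotypes. With array set as a block, 0 of 48 members were again called in each, against 0.011% of all genes for me against WT, and 0% in the other pairwise comparisons and the F test. At an unadjusted p under 0.05 with no block, 0 members met the threshold for me against WT (0.874% of all genes), 1 (Psmd12) for he against WT (0.335%), 1 (Psmb1) for me against he (0.841%) and 1 (Psmd12) in the F test (0.616%). With the block, 4 members (Psmc4, Psmd12, Psmd5 and Psmb1) met it in the F test (8.33%, against 3.52% of all genes). For me against WT with the block 1 member (Psmb1) met it as higher (2.08% of members, against 2.1% of all genes) and 2 (Psmc4 and Psma5) as lower (4.17%, against 2.95%), shares close to those of all genes. For he against WT 0 met it as higher (0.599% of all genes) and 4 (Psmd12, Psmd5, Psmc2 and Psma6) as lower (8.33% of members, against 1.69%). For me against he 3 (Psmb1, Psmd5 and Psmd12) met it as higher (6.25%, against 2.18%) and 1 (Psmc4) as lower (2.08%, against 1.35%). None of these withstood adjustment over all probe sets, and the comparisons share arrays.

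In terms of single arrays, no member had me arrays all above or all below the WT arrays, where 0.813% and 0.803% of all genes had. For he against WT 0 members lay wholly above (0.308% of all genes) and 1, Psmd12, wholly below (0.583%). For me against he 3 members, Psmb1, Psmd12 and Psmd9, lay wholly above (1.58%) and 0 wholly below (0.912%).

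In the blocked fit the 95% intervals of 47 of the 48 members lay within ± 0.5 on the log2 scale, a 1.41-fold change, in each of the 3 comparisons. For me against WT they ran from -0.56, the lower bound of Psmc3ip, to 0.41, the upper bound of Psmb10. Without the block 34 members stayed within that bound for me against WT, and 28 in each of the other comparisons.

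**Figure D2:**
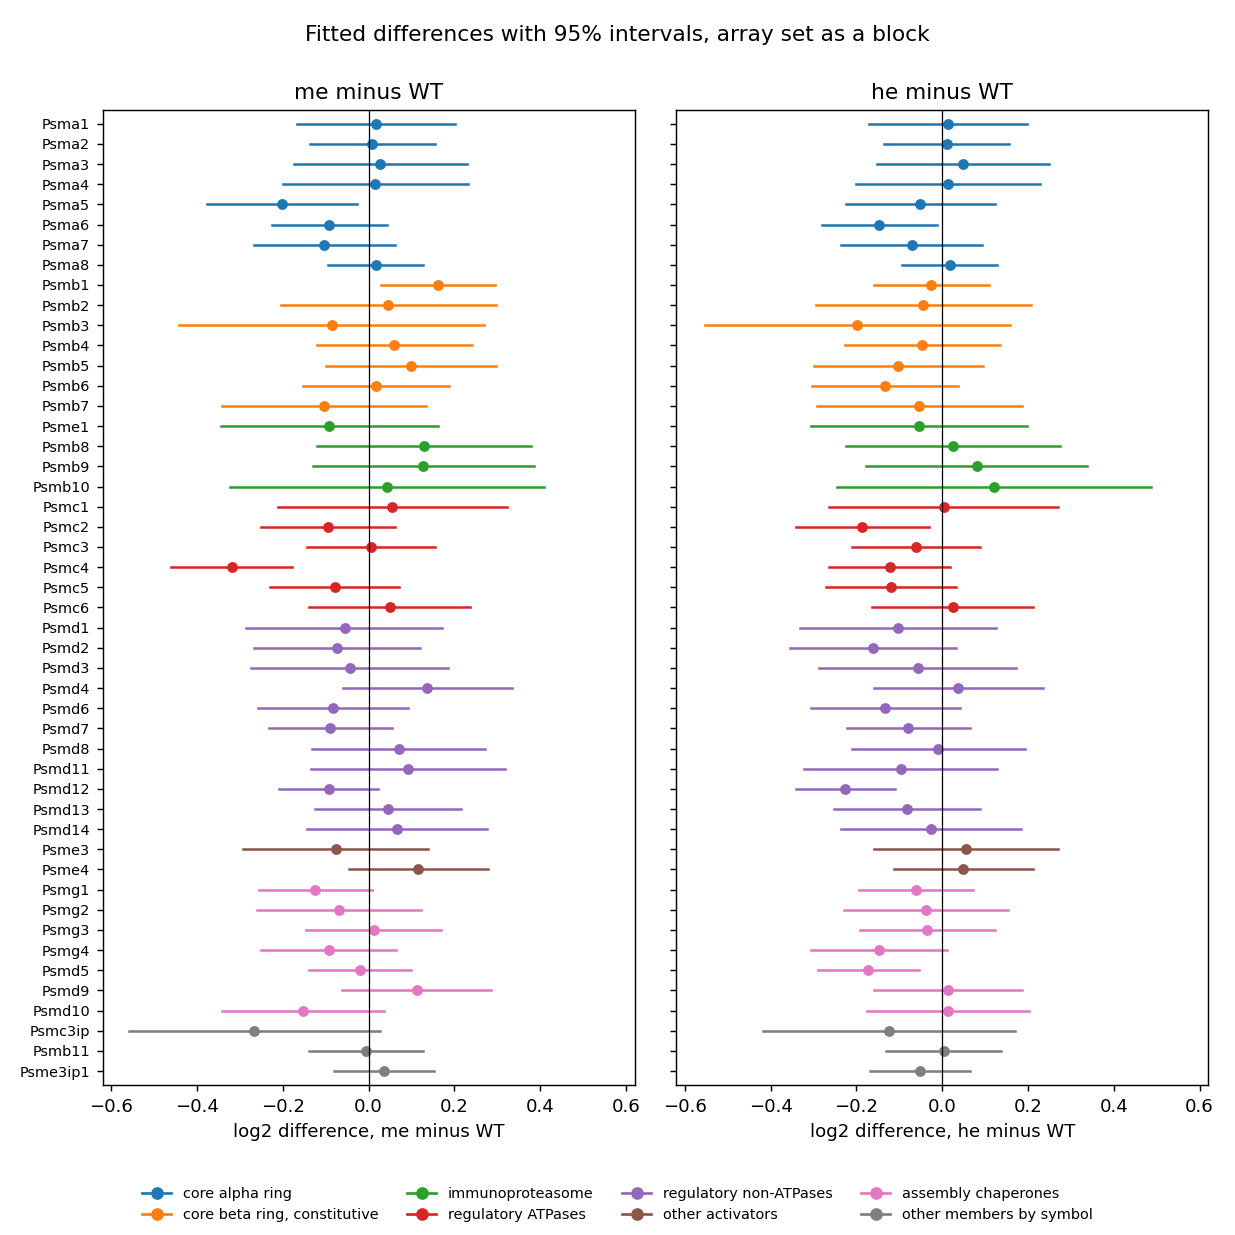
Fitted log2 differences of the 48 members with 95% intervals, array set as a block, for me minus WT (left) and he minus WT (right), coloured by member group. Nearly all intervals stay within ± 0.5, and in the he panel all 7 constitutive beta ring points lie below 0.

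The alpha ring genes, which form the gated outer rings, showed me minus WT differences of -0.17 to 0.04, with 5 of 8 higher and 3 lower and a median of 0.02, beside 0.00 over all genes. Within sets that median was 0.05 (A) and -0.07 (B). For he minus WT 4 were higher and 4 lower (median -0.01), and 5 and 3 with the block (median 0.01). Psma5 had the lowest of these me minus WT differences. Its values were 11.86, 11.49 and 11.74 in me, 11.89, 11.76 and 11.70 in he and 11.93, 11.92, 11.66 and 11.95 in WT. The me arrays overlapped WT through WT 3, the lowest WT array. The difference was -0.17 ± 0.11, and -0.20 ± 0.08 with the block (unadjusted p = 0.0274, adjusted p = 0.989), while other Psma5 probe sets gave 0.06 and -0.08. Psma7 differed by -0.11 ± 0.08 between me and WT. Psma8, the alpha subunit of the testis particle, had levels of 7.10 to 7.29, below the array's median probe set at 7.64, where 46 of the 48 members lay above it.

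The 7 constitutive beta ring genes were lower in he than in WT at every gene, by small amounts (-0.24 to -0.01, median -0.08), and lay higher in me than in he at every gene (0.03 to 0.32, median 0.17). With the block all 7 were again lower in he (median -0.05), and 6 of 7 higher in me than in he (median 0.11). Against WT, 6 of 7 were higher in me (median 0.07), and 5 of 7 with the block (median 0.04), while the median within set B was -0.03. No he minus WT difference of these genes had an unadjusted p under 0.05, and over all genes 9660 of 18193 were lower in he. For he minus WT, 34 of the 48 members were lower in all, and 45 without normalisation between arrays.

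Psmb1, a structural beta subunit, had the lowest p among these for me against WT. Its values were 11.16, 11.29 and 11.37 in me, 11.08, 11.09 and 11.14 in he and 11.10, 11.07, 11.21 and 11.11 in WT. The me arrays all lay above the he arrays, and 1 of them lay below WT 3. The me minus WT difference was 0.15 ± 0.07, and 0.16 ± 0.06 with the block (unadjusted p = 0.0229, adjusted p = 0.989), and me minus he 0.17 ± 0.07. Other Psmb1 probe sets gave me minus WT differences of -0.26 and 0.01.

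Psmb5, which carries the chymotrypsin-like site, had 10.87, 10.99 and 10.91 in me, 10.65, 10.68 and 10.98 in he and 10.63, 10.89, 10.87 and 11.00 in WT. All genotypes overlapped, with he 1, he 2 and WT 1 low. Its me minus WT difference was 0.07 ± 0.11. Psmb6, with the caspase-like site, had 10.59, 10.39 and 10.77 in me, 10.49, 10.25 and 10.21 in he and 10.60, 10.85, 10.30 and 10.29 in WT. Its genotypes overlapped too, with a me minus WT difference of 0.08 ± 0.16. Psmb7, with the trypsin-like site, had 9.43, 8.23 and 9.15 in me, 9.33, 8.42 and 8.11 in he and 9.42, 9.44, 8.13 and 8.44 in WT. In Psmb7 the level followed array set, and the me minus WT difference of 0.08 ± 0.44 became -0.10 ± 0.11 with the block.

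Among the 6 ATPases, 4 were higher and 2 lower in me than in WT (-0.40 to 0.04, median 0.00), but 3 were higher and 3 lower with the block (median -0.04). The sign of this median changed in 22 of 33 settings. Psmc4, an ATPase of the base, had the lowest p of any member for me against WT with the block. Its values were 10.25, 10.89 and 10.24 in me, 10.53, 11.00 and 10.95 in he and 10.55, 10.73, 11.12 and 11.06 in WT. Within each set every me array lay below every he and WT array, though across sets me 2 lay above WT 1 and WT 2. The me minus WT difference was -0.40 ± 0.21, a 1.32-fold lower level, and -0.32 ± 0.06 with the block (interval -0.46 to -0.18, unadjusted p = 0.000652, adjusted p = 0.639). It was -0.39 within set A and -0.20 within set B. The difference was seen at 1 of its 2 probe sets. The dimmer probe set had 9.49, 8.81 and 9.42 in me, 9.41, 8.80 and 8.68 in he and 9.42, 9.57, 8.95 and 8.96 in WT, a me minus WT difference of 0.02, and -0.09 with the block (unadjusted p = 0.178). The probe sets also shifted in opposite directions between array sets (0.54 and -0.63, set B minus set A). Psmc2, another ATPase, had 12.68, 12.41 and 12.56 in me, 12.58, 12.16 and 12.33 in he and 12.69, 12.84, 12.37 and 12.49 in WT. In each set the he arrays were lowest, apart from me 3 in set A. Its he minus WT difference was -0.19 ± 0.07 with the block (unadjusted p = 0.0242, adjusted p = 1). The other Psmc2 probe set above the median probe set gave -0.10 with the block (unadjusted p = 0.197).

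The 11 non-ATPases had a median me minus WT difference of -0.04 with 4 higher and 7 lower (-0.20 to 0.15), and a median he minus WT difference of -0.11 with 2 higher and 9 lower. Psmd12, a subunit of the lid that covers the ATPases, was the member with the lowest p for he against WT. It had 10.55, 10.41 and 10.45 in me, 10.35, 10.30 and 10.35 in he and 10.50, 10.58, 10.58 and 10.59 in WT. The he arrays lay below all others, and me arrays lay between he and the upper WT arrays. The he minus WT difference was -0.23 ± 0.06 (unadjusted p = 0.00403, adjusted p = 1), a 1.17-fold lower level, and -0.23 ± 0.05 with the block (unadjusted p = 0.00166, adjusted p = 1). It was -0.18 within set A and -0.26 within set B, and -0.25 to -0.21 when any 1 array was left out. Against WT, me differed by -0.09 ± 0.06. Psmd12 is covered by 1 probe set, so no other probes bear on it.

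Of the other lid subunits, Psmd8 differed by 0.15 ± 0.22 between me and WT and Psmd13 by 0.07 ± 0.10, and Psmd6 by -0.17 ± 0.12 between he and WT. With the block Psmd6 differed by -0.13 between he and WT and by -0.08 between me and WT. A dimmer Psmd6 probe set gave -0.16 (unadjusted p = 0.047) and -0.29 (unadjusted p = 0.00266) for these in the blocked limma fit. That probe set was picked out after its values were seen. Psmd4, a ubiquitin receptor of the particle, had 9.61, 10.98 and 9.95 in me, 9.58, 10.93 and 11.07 in he and 9.58, 9.57, 11.01 and 10.91 in WT. At this probe set it split by array set, with set B arrays at 10.91 to 11.07 and set A arrays at 9.57 to 9.95. Other Psmd4 probe sets above the median probe set shifted by 0.19 and -0.45 (set B minus set A). At the brightest probe set the me minus WT difference of Psmd4 was -0.09 ± 0.53, and 0.14 ± 0.09 with the block.

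**Figure D3:**
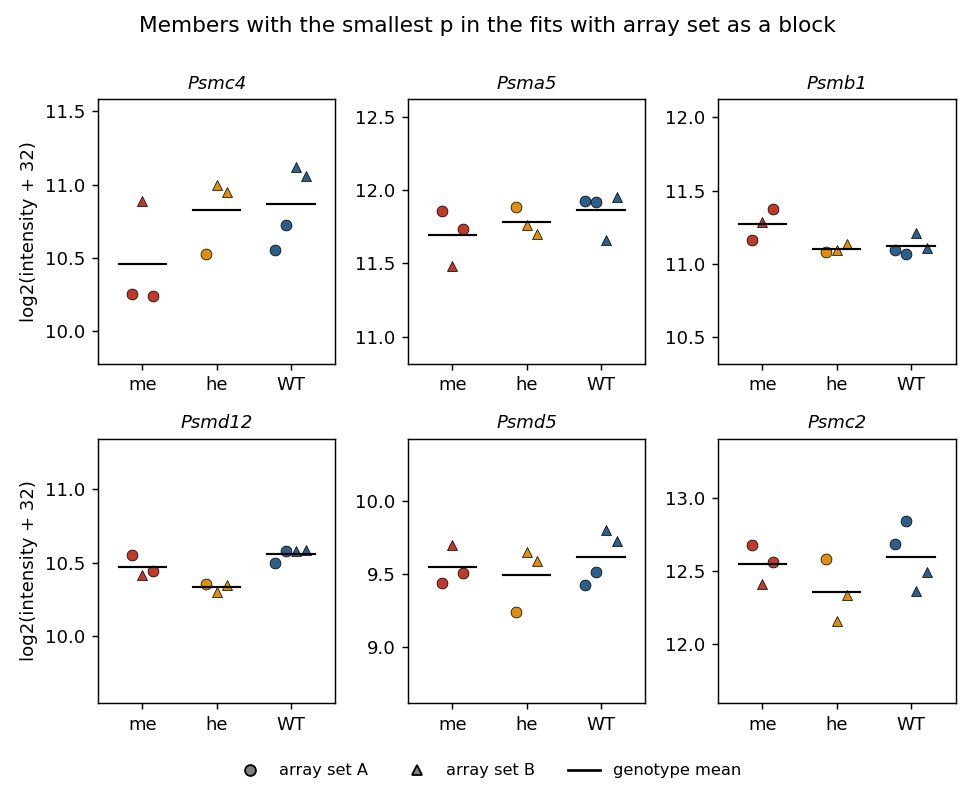
Levels, log2(intensity + 32), of 6 members with low p-values in the blocked fits, by genotype (me, he, WT), with circles for array set A, triangles for set B and lines for genotype means. In the Psmd12 panel the 3 he arrays lie below all me and WT arrays, and in the Psmc4 panel me lies lowest within each set.

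The probe sets of the remaining activators followed array set. Psme3, which forms a nuclear activator ring, had 9.47, 9.82 and 9.40 in me, 9.42, 9.89 and 10.22 in he and 9.58, 9.52, 9.79 and 9.98 in WT. Psme4, a single-chain activator, had 10.22, 11.15 and 10.39 in me, 10.31, 11.01 and 11.06 in he and 10.26, 10.07, 10.98 and 11.11 in WT. In both genes the genotypes overlapped, and at these probe sets set B arrays lay above set A arrays. Other probe sets above the median shifted the other way, by -0.44 for Psme3 and by -0.63 and -0.52 for Psme4 (set B minus set A). With the block the me minus WT differences were -0.08 ± 0.10 for Psme3 and 0.12 ± 0.07 for Psme4.

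The 7 chaperones that assemble the core and regulatory particles were all lower in he than in WT without the block (lowest -0.20, median -0.10), but 5 of 7 with it (median -0.04). In me, 2 were higher and 5 lower than in WT (-0.07 to 0.13, median -0.04). Psmd9, a chaperone of the ATPase ring, had 8.61, 8.63 and 8.64 in me, 8.46, 8.58 and 8.43 in he and 8.63, 8.63, 8.40 and 8.32 in WT. All me arrays lay above all he arrays, narrowly for me 1 (8.61) against he 2 (8.58), while me and WT overlapped. The me minus he difference of means was 0.13 ± 0.10. At another Psmd9 probe set above the median probe set me and he overlapped, with a difference of 0.27, and -0.01 with the block. Psmd5, also an ATPase ring chaperone, had 9.44, 9.70 and 9.51 in me, 9.24, 9.65 and 9.59 in he and 9.43, 9.52, 9.80 and 9.72 in WT. Its he minus WT difference was -0.17 ± 0.05 with the block (unadjusted p = 0.00933, adjusted p = 1). Of the core chaperones, Psmg1 differed by -0.12 ± 0.06 between me and WT with the block, and Psmg4 by -0.20 ± 0.15 between he and WT without it. Psma6 was the fourth member that met p under 0.05 for he in the blocked fit, at -0.15 ± 0.06 (unadjusted p = 0.0349), where Psmd5 and Psma6 were named after their values were seen. Other Psma6 probe sets above the median probe set gave -0.05 and -0.09 with the block.

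The 3 genes outside the particle were Psmb11, Psme3ip1 and Psmc3ip. Psmb11, the catalytic subunit of the thymic epithelial particle, had levels of 7.06 to 7.27, below the median probe set, in every array. Psme3ip1, which binds Psme3, differed by 0.04 between me and WT. Psmc3ip, a factor of meiotic recombination, had 9.81, 8.98 and 9.64 in me, 9.73, 8.96 and 9.40 in he and 10.08, 10.08, 8.98 and 9.32 in WT, and differed by -0.27 ± 0.13 between me and WT with the block. Without these 3 the median me minus WT difference was 0.00.

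In most members array set separated the arrays further than genotype did. The sets were drawn from the expression values of these same arrays, so a large set difference was in part built in. The median absolute difference between sets was 0.25 over the 48 members, beside 0.28 over all genes. The median absolute genotype difference was 0.05 for me minus WT, 0.09 for he minus WT and 0.09 for me minus he. In 41 of 48 members the set difference was larger in size than me minus WT, and in 12 it was over 0.5. The extremes, named after their values were seen, were Psmd4 (1.32, set B minus set A), Psmd3, a lid subunit (0.93), and Psme4 (0.81) on one side and Psmb7 (-1.09), Psmc3ip (-0.74) and Psmc5, an ATPase (-0.74), on the other. Probe sets of a gene often disagreed. Of 22 members with at least 2 probe sets above the median probe set, 11 had set differences of both signs and 13 had me minus WT differences of both signs. A further 22 members had 1 probe set in all. The standard error of me minus WT had a median of 0.14 over members without the block and 0.08 with it.

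**Figure D4:**
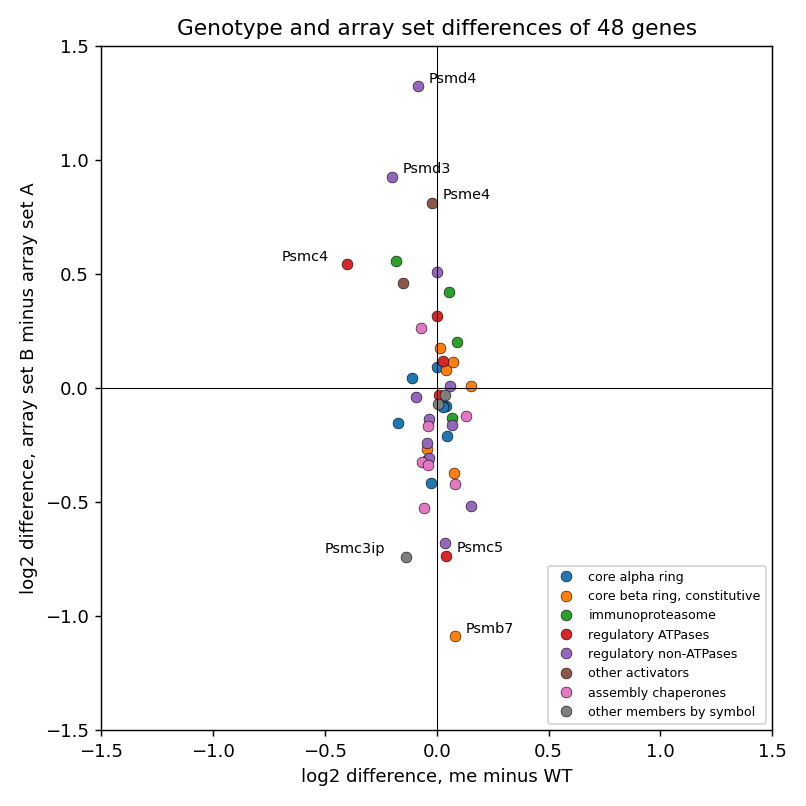
Each point is a member, with its me minus WT log2 difference without a block on the x axis and its set B minus set A difference on the y axis, on equal scales, coloured by member group. The cloud is tall and narrow, with Psmd4 at 1.32 and Psmb7 at -1.09 at its ends.

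Genes that work with the proteasome, from a list of 24 of which 15 were measured, had 6 higher and 9 lower in me than in WT (median -0.07) and 3 higher and 12 lower in he (median -0.09), and 0 were called. Within sets the me minus WT median was 0.01 (A) and -0.11 (B). With the block 0 of 15 were higher (2.1% of all genes) and 1 lower (2.95% of all genes) for me against WT at an unadjusted p under 0.05. That gene was Ufd1, a cofactor of the segregase Vcp, with 8.74, 8.65 and 8.76 in me, 8.76, 8.83 and 8.67 in he and 8.82, 8.83, 8.91 and 8.82 in WT. All me arrays lay below all WT arrays, as in 0.803% of all genes, with a me minus WT difference of -0.13 ± 0.06. Uchl5, a deubiquitinase of the particle, differed by -0.16 ± 0.08 between me and WT, Psmf1, an inhibitor, by 0.15 ± 0.08, and Ecpas, an adaptor, by -0.09 ± 0.07.

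Class I antigen processing genes, which use the peptides that the proteasome makes, had 8 of 14 measured (of 15 listed) higher and 6 lower in me than in WT (median 0.04), but 6 higher and 8 lower with the block (median -0.01), and 0 were called. The median was 0.02 within set A and -0.09 within set B. With the block 1 of 14 (H2-D1) was higher (2.1% of all genes) and 1 (Lap3, an aminopeptidase) lower (2.95% of all genes) at an unadjusted p under 0.05. H2-D1, a class I heavy chain, had 13.25, 12.78 and 13.17 in me, 13.04, 12.79 and 12.44 in he and 12.92, 12.77, 12.22 and 12.62 in WT. Within each set the me arrays lay above the WT arrays, and across sets me 2 lay below WT 1. The me minus WT difference was 0.44 ± 0.20, and 0.37 ± 0.11 with the block (unadjusted p = 0.00852, adjusted p = 0.989). H2-K1, the other heavy chain, differed by 0.26 ± 0.22, Irf1, a transcription factor of the interferon response, by -0.14 ± 0.14, and Canx, a folding chaperone, by -0.12 ± 0.13. Tap1, which faces Psmb9 across the printed stretch, had 9.71, 9.20 and 9.91 in me, 9.61, 9.78 and 9.47 in he and 9.69, 9.66, 9.02 and 9.61 in WT. Its genotypes overlapped, and its set B minus set A difference was -0.30, where that of Psmb9 was 0.20.

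Summed plasma cell markers were higher in every me array than in the other arrays, as were Jchain, Mzb1 and Ighm singly, while Sdc1 and Prdm1 overlapped. Over all genes 0.813% had me arrays wholly above WT and 1.58% wholly above he. The summed intensity of 5 plasma cell genes was 9980, 4323 and 14074 in me, against 2851 to 3790 in he and 2229 to 3655 in WT. That of 7 myeloid genes was 1053 to 1786 in me, 967 to 1518 in he and 969 to 1274 in WT. The sums of 5 B cell genes were 873 to 1048 in me, 796 to 969 in he and 795 to 1011 in WT. Within each array set the me arrays lay above the he and WT arrays in both the myeloid and the B cell sums. In set A the myeloid sums were 1053 and 1450 in me, against 967 to 1003. In set B they were 1786 in me 2, its only me array, against 1230 to 1518. The B cell sums were 873 and 939 against 795 to 834 in set A, and 1048 against 904 to 1011 in set B. With the block 6 of 7 myeloid and 4 of 5 B cell genes were higher in me than in WT. The sums of 4 dendritic cell genes were 569 to 629 in me, 572 to 613 in he and 561 to 705 in WT. Those of 6 CD8 and NK cell genes were 1359 to 6755 in me, 1370 to 6831 in he and 1350 to 5728 in WT, ranges that follow array set as given above. Those of the 8 Treg and CD4 T cell genes were 16216 to 18667 in me, 15290 to 16797 in he and 14128 to 15629 in WT. The ratio of 3' to 5' Gapdh signal, a sign of RNA quality, was 10.9, 9.92 and 13.8 in me and 7.84 to 9.71 in the other arrays. The part of these in the me minus WT differences above was not tested.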

How the data were processed

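The authors deposited linear intensity values for every probe set of each array. How they summarised, corrected and scaled them is not stated in the labels or headers. Per the labels' protocols, RNA was amplified from 20 ng of total RNA, and 10 ug of the product was labelled with biotin. Array medians ran from 148 to 188. Of 45101 probe sets, 64 controls took part in normalisation and were then dropped, which left 45037. Of these the array annotation named 1 gene for 34945, several for 932 and none for 9160. Values were taken as log2(intensity + 32) and quantile normalised. Differences came from limma 3.58.1 in R 4.3.3 (lmFit, eBayes) on all 10 arrays, with p-values adjusted by Benjamini-Hochberg over the 45037 probe sets (threshold 0.05). The procedure was tested on simulated data, with changes larger than any me minus WT difference of a member here, so the test does not bear on smaller ones. Array sets came from clustering the arrays' correlations. The number of arrays limits the precision.

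Members, lists, tests and alternatives were chosen with earlier results of these data known. Named by rule were the immunoproteasome genes, their counterparts, Psme3, Psme4, up to 4 members in each direction with the smallest p in each comparison, and for me against WT also with the block, up to 4 genes of each pathway list, Ptpn6, Foxp3, Cd4 and Il2ra. Cd4 differed between me and WT by 0.13 ± 0.11 and Il2ra by -0.23 ± 0.12. Alternatives were a replicate block, array set as a block, with me 3 also counted in set B, each set alone, the compared groups alone, a smaller and a larger pseudocount, other scalings, a filter on low values, the mean of all probe sets, a trended robust prior, a threshold of 0.1 and leaving out each array.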

Additional observations from a re-analysis of the deposited data

Results flagged for a closer look

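Among 38 named genes and pairs, 4 had a WT array that stood apart from the other 3 WT arrays by Dixon's test at its 95% critical value. Chance flags about 1 in 20 groups. In Psmb9 the array WT 4 was highest at 11.1. In Psma5 the array WT 3 was lowest at 11.66. In Psmd12 the array WT 1 was lowest at 10.5, still above all he arrays. In Ufd1 the array WT 3 was highest at 8.91.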

How the results depend on the processing

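The count of members called stayed at 0 in all 135 settings of the 4 tests, with lowest adjusted p-values of 0.529 for me against WT, 0.702 for he against WT, 0.654 for me against he and 0.915 for the F test. Between arrays with the same replicate number, correlations of deviations were 0.69 to 0.94 within an array set and -0.87 to -0.4 across sets. They followed array set, so they cannot show whether replicate numbers pair the samples. With a replicate block 0 members were called, and the median over all members was 0.01 for me minus WT and -0.05 for he minus WT. Group medians were given for groups of at least 4 members, and 676 of 693 settings moved them by less than the spread between arrays. That spread includes the shift between array sets, so a median could change sign and still count among the 676. Signs changed in 22 of 33 settings for the ATPases (me minus WT). They changed in 12 for the alpha ring (he minus WT) and 12 for the immunoproteasome (me minus he). For the beta ring and non-ATPases (he minus WT) they changed in 0. The settings that moved a median further were as follows, as log2 medians. For the immunoproteasome genes, me minus he was 0.19 within set A, -0.22 within set B and 0.16 with centring on array medians. Without normalisation, he minus WT was -0.23 for the alpha ring, -0.26 for the beta ring, -0.10 for the immunoproteasome and -0.24 for the ATPases, me minus WT was -0.085 for the alpha ring, and me minus he was 0.12 for the alpha ring and 0.18 for the ATPases. With centring, he minus WT was -0.25 for the alpha ring, -0.28 for the beta ring, -0.12 for the immunoproteasome and -0.26 for the ATPases, and me minus he was 0.16 for the alpha ring, 0.35 for the beta ring and 0.22 for the ATPases. The cause was not tested. Scaling moved the median of all genes by less than 0.1, but lower members for he against WT numbered 34, and 45 without normalisation and 47 with centring. For me against WT they numbered 22, 30 and 26, and for me against he 14, 7 and 6. Leaving out 1 array gave immunoproteasome medians of -0.02 to 0.10 for me minus WT and -0.04 to 0.26 for he minus WT. Of 2277 recomputed differences of named members, 291 changed sign, including me minus WT of 16 of the 23 named members in at least 1 setting. Psmc4 kept its sign for me minus WT, between -0.62 and -0.19.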
